A study of Mus musculus with 4 samples.

Results

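A small population of stromal cells that carried transcripts of Clic5 and F13a1 was examined in single-cell RNA sequencing of mouse bone marrow stroma. A cell was a member where Clic5 and F13a1 together gave at least 8 of every 10000 of its UMIs (unique molecular identifiers, which count transcript molecules). It also had to hold at least 1 Clic5 UMI and none of Ptprc, which encodes CD45, or of the leukocyte adaptor gene Tyrobp. The rule was applied to barcodes with at least 2000 UMIs, at least 500 detected genes and no more than 10% mitochondrially encoded UMIs. Of 21483 such barcodes, 596 were members, with 190 in NHD13Tg, 334 in WT_A1, 50 in Abcg2-MDS/AML and 22 in Control. The members were thus chosen by their Clic5, F13a1, Ptprc and Tyrobp counts, so the levels of these genes, and every comparison of members with the other cells, are descriptions and no test was made of them.

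The 4 C57BL/6 libraries, 1 per group, came from crushed and collagenase-digested femora and tibiae, from which cells negative for CD45, TER119 and CD31 and positive for CD140a and CD51 were sorted. NHD13Tg carries the Nup98-HoxD13 transgene, a model of myelodysplastic syndrome that is known to be driven by Vav1 regulatory elements and so to act mainly in blood cells, and it was set against the wild-type library WT_A1. Abcg2-MDS/AML is the second model and was set against the wild-type library Control; the labels do not say in which cells its change acts. No treatment or age was labelled. With 1 library per group, a difference within a pair is one between 2 libraries, without a replicate check or p-value, and all intervals in parentheses are 95% intervals that cover counting error only.

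The synovial lining is the thin cell layer that faces the joint cavity. Its fibroblast-like cells secrete hyaluronan and lubricin, the product of Prg4, which lubricate cartilage; they lie beside lining macrophages, and the layer has no basement membrane. Clic5 encodes a chloride intracellular channel family protein that associates with ezrin and the actin cortex. F13a1 encodes the A subunit of coagulation factor XIII, a transglutaminase that cross-links fibrin and fibronectin and is best known from platelets and macrophages. Of the other marker genes, Pla1a encodes a phosphatidylserine-specific phospholipase, Tspan15 a tetraspanin that partners the sheddase ADAM10, Sparcl1 the matricellular protein hevin and Rgs5 a regulator of G-protein signalling known from pericytes.

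The 4 matrices held between 36133716 and 46033790 UMIs. Members were deeper than the other cells in 3 libraries, with median UMIs per cell of 9645 against 4928 in NHD13Tg, 10064 against 5268 in WT_A1 and 6611 against 4180 in Abcg2-MDS/AML, and not in Control, with 4580 against 5064. Between 6 and 14 kept barcodes were shared by any 2 libraries, and none of the shared barcodes was a member. Of the genes of the sort, Pdgfra (CD140a) had 203, 241, 296 and 244 CPM (UMIs per 1000000 summed UMIs of the cells) in members of NHD13Tg, WT_A1, Abcg2-MDS/AML and Control, and Itgav (CD51) had 78.3 to 88.6 CPM. Pecam1, the gene of CD31, had 2, 5, 0 and 0 UMIs. Of the model genes, Hoxd13 had 1 UMI in NHD13Tg and 3 in WT_A1 members, and Abcg2 had 0 in Abcg2-MDS/AML and 1 in Control members, too few to check either model.

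Members formed 3.30% of kept barcodes in NHD13Tg (2.85 to 3.79) and 6.72% in WT_A1 (6.04 to 7.45), a difference of -3.42 percentage points (-4.28 to -2.58). They formed 0.895% in Abcg2-MDS/AML (0.665 to 1.18) and 0.427% in Control (0.267 to 0.645), a difference of 0.469 points (0.151 to 0.793). The share was thus lower in 1 model and higher in the other, and both wild-type libraries lay at the ends of the range. Shares of sorted cells depend on the sort and on the UMI minimum; with at least 4000 UMIs required, the differences were -3.97 points (-5.11 to -2.85) and 0.734 points (0.280 to 1.23).

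**Figure D1:**
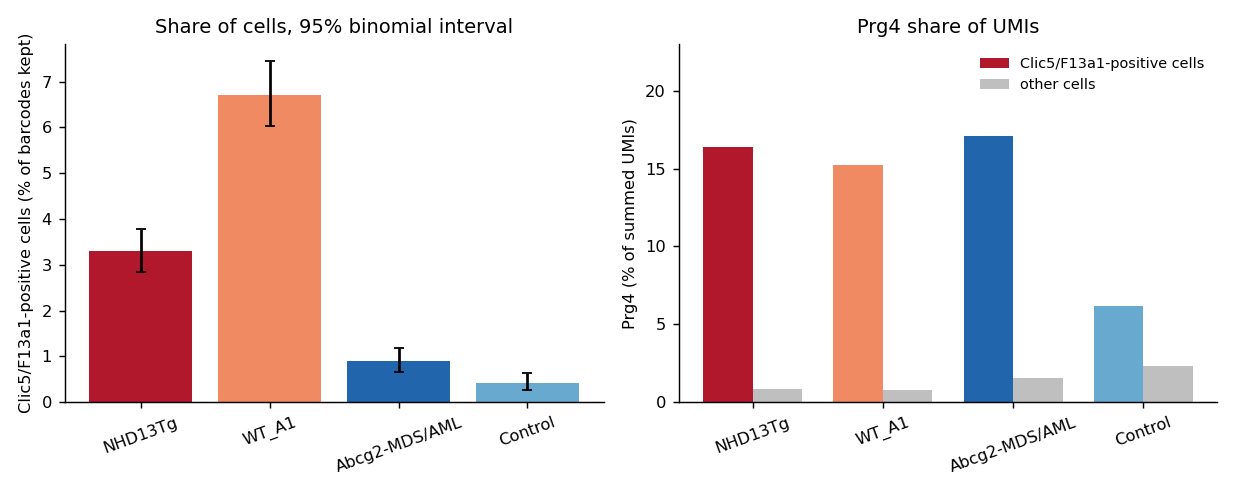
Left, members as a percentage of the barcodes kept in each library, with exact 95% binomial intervals; right, Prg4 as a percentage of summed UMIs in members (coloured bars) and in the other cells of the same library (grey bars). Members reach 6.72% of cells in WT_A1 and 0.427% in Control, and Prg4 takes over 15% of their UMIs in every library but Control.

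Prg4 dominated the members' transcripts. It gave 16.4% of all member UMIs in NHD13Tg, 15.2% in WT_A1, 17.1% in Abcg2-MDS/AML and 6.15% in Control, against 0.877%, 0.780%, 1.53% and 2.30% in the other cells of those libraries. In barcodes with 1 to 100 UMIs, which hold free RNA, Prg4 made up 1.28% to 1.83% of UMIs, so the members stood above free RNA in each library. The members held 53.3% of all Prg4 UMIs of kept barcodes in NHD13Tg and 70.0% in WT_A1, but 10.5% in Abcg2-MDS/AML and 0.789% in Control. In the second pair most lubricin transcripts were therefore in cells outside this population. Among single members the Prg4 count per 10000 UMIs ran from 0 through a median of 1305 to 4201 in NHD13Tg, from 0 through 1168 to 3998 in WT_A1, from 23.3 through 1610 to 3764 in Abcg2-MDS/AML and from 0 through 458 to 2681 in Control. Cells of 1 library thus ranged from almost no lubricin message to a large part of all their transcripts, and the 4 ranges overlapped.

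Clic5, which the rule requires, was scarce outside the members. It stood at 1393 CPM in members and 8.61 CPM in the other cells of NHD13Tg, at 1653 and 9.21 CPM in WT_A1, at 1819 and 2.56 CPM in Abcg2-MDS/AML and at 1253 and 1.63 CPM in Control. With 10 CPM added to both sides, these are folds of 75.4, 86.6, 146 and 109. A Clic5 UMI was found in 3.68%, 3.90%, 1.01% and 0.915% of other cells; after every cell was thinned to 2000 UMIs, it was found in 72.7% to 90% of members and in 0.487% to 1.40% of other cells.

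F13a1 was carried by most members but varied between libraries. A UMI of it was found in 92.1% of members in NHD13Tg, 97.0% in WT_A1, 76.0% in Abcg2-MDS/AML and 90.9% in Control, against 3.57%, 5.35%, 6.54% and 8.74% of the other cells. The rule set the sum with Clic5 and required a Clic5 UMI, which removed 34, 53, 30 and 71 barcodes that reached the sum through F13a1 alone. The ratio of both genes in members is therefore conditioned on the rule and is given as a description. There were 0.948 F13a1 UMIs per Clic5 UMI in NHD13Tg members and 1.11 in WT_A1 members. The ratio was 0.269 in Abcg2-MDS/AML members and 0.674 in Control members.

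The threshold did not fall in a gap between members and other cells. With a sum of at least 4 per 10000 instead of 8, members numbered 231 in NHD13Tg, 386 in WT_A1, 71 in Abcg2-MDS/AML and 34 in Control, against 190, 334, 50 and 22. Between 8 and 10 UMIs per 10000 there were 20, 12, 7 and 6 members in NHD13Tg, WT_A1, Abcg2-MDS/AML and Control, and between 6 and 8 there were 20, 18, 8 and 6 Clic5-positive barcodes left outside. The lowest members stood at 8.06 to 8.39 and the highest barcodes outside at 7.31 to 7.97. Only 1 barcode, in WT_A1, was lost to Ptprc or Tyrobp. Prg4 did not stop at the threshold: in NHD13Tg it stood at 176710 CPM in members with a sum of 16 or more, 133070 CPM in members between 8 and 16 and 97672 CPM in Clic5-positive cells between 4 and 8, and in WT_A1 at 161230, 116240 and 51060 CPM.

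**Figure D2:**
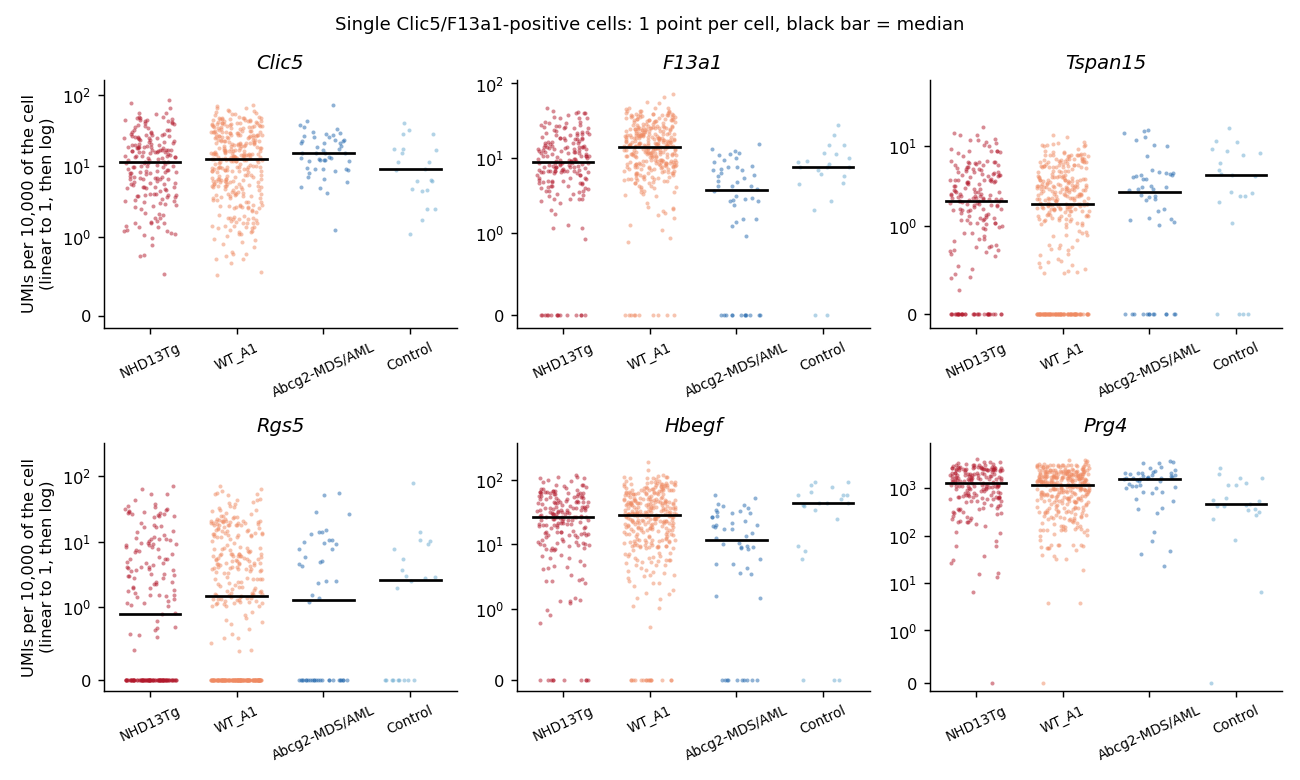
UMIs per 10000 UMIs of the cell for 6 genes in every member, 1 point per cell, with the median of each library as a black bar; the axis is linear up to 1 and logarithmic above. Rgs5 is absent from many of the members of each library, while Clic5, F13a1, Hbegf and Prg4 are spread over more than a 10-fold range within each library.

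The 15 genes with the largest lowest fold over the 4 libraries describe the population beyond the genes of the rule. In descending order of that fold they were Clic5 (75.4), Cystm1 (17.2), Tspan15 (15.3), F13a1 (11.2), Rgs5 (10.2), Aldh1a3 (9.85), Itga6 (9.02), Sema3a (8.33), Pcsk6 (8.24), Htra4 (7.31), Cd55 (7.08), Sparcl1 (6.97), Pla1a (6.88), AA467197 (6.81) and Fn1 (6.72). Tspan15 stood at 256, 250, 359 and 453 CPM in members of NHD13Tg, WT_A1, Abcg2-MDS/AML and Control, against 4.24 to 7.70 CPM in the other cells. Itga6, the integrin chain that pairs to bind laminin, stood at 222, 290, 256 and 383 CPM against 10.6 to 19.2 CPM. Aldh1a3, which makes retinoic acid from retinaldehyde, stood at 199, 230, 237 and 374 CPM against 4.99 to 14.1 CPM. Pcsk6, a proprotein convertase that matures TGF-beta family ligands, stood at 737, 762, 531 and 670 CPM against 23.4 to 83.8 CPM, and the axon guidance ligand Sema3a at 116, 132, 131 and 191 CPM against 3.97 to 5.61 CPM. Fn1, the fibronectin gene, was the most abundant of the 15, with 25206, 23207, 17254 and 14829 CPM in members against 1825 to 3445 CPM in the other cells. Clic5 and F13a1 are among the 15 through the rule, and the other 4 given markers (Tspan15, Rgs5, Sparcl1 and Pla1a), which were chosen with earlier results of these data known, are also among them. A total of 6050 genes had at least 20 CPM in the members or in the other cells, each summed over the 4 libraries. Of these, 137 (2.26%) were at least 2-fold higher in members in all 4 libraries and 176 (2.91%) at least 2-fold lower. The median log2 fold over all these genes was -0.09, -0.10, 0.13 and 0.03.

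The promoters of the 2 genes of the rule and of Tspan15, the leading surface marker, are shown as RefSeq gives them on GRCm38.p6, from 250 bases before to 50 after the start. Clic5 lies at chr17:44188322-44188621 on the plus strand, F13a1 at chr13:37050195-37050494 on the minus strand, with a second start also listed, and Tspan15 at chr10:62231169-62231468 on the minus strand. Capitals mark a match to the AP-1 motif TGANTCA on either strand.
Clic5: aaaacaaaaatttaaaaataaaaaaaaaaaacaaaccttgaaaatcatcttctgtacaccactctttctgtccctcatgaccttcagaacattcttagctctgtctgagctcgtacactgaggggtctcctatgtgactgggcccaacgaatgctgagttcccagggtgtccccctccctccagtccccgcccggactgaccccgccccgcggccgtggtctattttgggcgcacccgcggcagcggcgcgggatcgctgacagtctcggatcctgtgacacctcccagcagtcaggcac
F13a1: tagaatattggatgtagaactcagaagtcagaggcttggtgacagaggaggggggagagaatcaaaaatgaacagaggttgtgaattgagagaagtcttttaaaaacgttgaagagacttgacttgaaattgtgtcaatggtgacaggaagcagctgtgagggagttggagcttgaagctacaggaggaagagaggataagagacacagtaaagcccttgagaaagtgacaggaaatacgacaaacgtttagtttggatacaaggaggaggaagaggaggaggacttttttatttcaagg
Tspan15: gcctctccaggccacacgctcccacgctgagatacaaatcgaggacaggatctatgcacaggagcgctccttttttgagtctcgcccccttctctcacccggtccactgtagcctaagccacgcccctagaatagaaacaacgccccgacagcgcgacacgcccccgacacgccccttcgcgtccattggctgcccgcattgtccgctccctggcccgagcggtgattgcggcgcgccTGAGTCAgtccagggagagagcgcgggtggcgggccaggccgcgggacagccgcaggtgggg
Of the 15 leading genes and Prg4, 8 had an entry. The AP-1 motif was found in 2 of the 8 (Tspan15, 12 bases before the start, and AA467197, 73 bases before it), and in 7.81% of 32851 promoters of that length. The cyclic-AMP response element TGACGTCA was found in none of the 8 and in 1.79% of all promoters, and the forkhead motif GTAAACA in none and in 3.65%. The 3 motifs were chosen after the values were seen and do not overlap each other; a match or its absence is a description of these letters only.

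The label was checked against markers of cell types that crushed bone could hold. Of 15 synovial lining markers, 13 had enough counts and 9 were at least 2-fold higher in members in every library: Prg4, Tspan15, Htra4, Htra1, Hbegf, Cd55, Has1, Col22a1 and Itga6. None of the 13 was lower in all 4, Itgb8, Pdpn, Fap and Vcam1 were not past 2-fold in all 4, and Crtac1 and Dnase1l3 had 0 UMIs. Outside this list, Cdh11, the gene of the cadherin known from lining fibroblasts, went against the label: it stood at 18.5, 14.3, 21.8 and 0 CPM in members against 331, 235, 69.7 and 59.8 CPM in the other cells. The median log2 fold of the list was 2.82, 2.84, 3.20 and 3.44. Hbegf, an EGF receptor ligand, stood at 3225, 3254, 1772 and 4229 CPM in members against 182, 174, 445 and 309 CPM in other cells. Cd55, the complement decay-accelerating factor that marks lining cells in human synovium, stood at 670, 697, 680 and 792 CPM against 86.0, 88.5, 21.0 and 29.5 CPM. Col22a1, a collagen of tissue junctions, stood at 397, 413, 215 and 583 CPM against 52.3, 42.6, 2.79 and 8.09 CPM. The lining list and the 6 given markers share Tspan15, and the lists were drawn up with earlier results of these data known.

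Macrophage, endothelial, blood cell and perineurial markers were at low levels in members, but the sublining list and single genes of other lists, such as S100b and Cspg4, were not. Thy1, which marks the synovial sublining, stood at 0.5 and 1.65 CPM in members of NHD13Tg and WT_A1 and at 0 in the other pair, while the Sca-1 gene Ly6a, also on that list, stood at 1329, 1499, 1148 and 714 CPM. Of the sublining list 0 of 10 were higher and 1, Cxcl12, was lower in all libraries. The list summed to 2810, 2655, 1392 and 1271 CPM in members against 8438, 6050, 1061 and 1180 CPM in other cells. Of 12 macrophage markers 7 had 0 UMIs, and the 12 summed to 18.7 to 34.8 CPM in members against 44.6 to 124 CPM in other cells. Of 9 endothelial markers 4 had 0 UMIs and none reached 20 CPM. The pericyte association of Rgs5 did not extend to the contractile genes: Acta2 stood at 1.5, 1.93, 3.12 and 0 CPM, and of 4 mural markers considered none was higher and 2, Acta2 and Tagln, were lower. Of the blood cells, 5 neutrophil markers summed to 0 to 9.5 CPM in members against 47.9 to 1512 CPM in other cells, and 6 erythroid markers to 0 to 60.9 CPM against 3.61 to 4982 CPM. Cspg4, a pericyte proteoglycan gene, stood at 133, 157, 71.8 and 139 CPM against 49.0, 77.0, 64.0 and 102 CPM. The mural list summed to 167, 205, 131 and 157 CPM in members against 206, 210, 279 and 148 CPM in other cells. At unequal depth, 70%, 76.6%, 40% and 54.5% of members held a UMI of it, against 38.6%, 42.0%, 32.3% and 46.7% of other cells. Of the 5 Schwann cell markers only S100b was considered, at 163, 184, 65.5 and 157 CPM against 72.3, 57.5, 74.3 and 103 CPM, and through it 61.1%, 62.3%, 18% and 45.5% of members held a UMI of that list, against 26.1%, 22.8%, 23% and 42.0% of other cells; the defining Schwann gene Sox10 had 0 UMIs in members. The 5 perineurial markers summed to 42.0, 27.5, 25 and 8.70 CPM in members against 49.4, 32.5, 50.1 and 46.4 CPM.

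Skeletal matrix genes were lower in members. Col1a1 stood at 558, 582, 153 and 322 CPM in members against 10463, 9195, 740 and 2827 CPM in the other cells, and Mgp, which encodes an inhibitor of calcification, at 177, 314, 1283 and 592 CPM against 6862, 3931, 36081 and 11840 CPM. Lower in all 4 libraries were 5 of 6 osteolineage markers (Bglap, Ibsp, Alpl, Phex and Dmp1), 4 of 5 tendon markers (Tnmd, Thbs4, Fmod and Myoc), 3 of 8 marrow reticular markers (Cxcl12, Lepr and Hp) and 3 of 9 chondrocyte markers (Col2a1, Acan and Col11a1), and none of these lists had a higher member. The chondrocyte list summed to 100 CPM in NHD13Tg, 113 CPM in WT_A1, 165 CPM in Abcg2-MDS/AML and 3742 CPM in Control members, against 674, 837, 8227 and 11603 CPM in the other cells. Of 6 superficial cartilage markers Prg4 was higher and Cytl1, Cilp and Cilp2 were lower. The Control value of the chondrocyte list came almost wholly from 1 cell, described with its pair.

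Hyaluronan synthesis was represented by 1 of the 3 synthases and by the enzymes that feed it. Has1 stood at 1255, 1314, 499 and 1140 CPM in members of NHD13Tg, WT_A1, Abcg2-MDS/AML and Control against 352, 405, 39.2 and 63.5 CPM in other cells. Has2 was at 8.70 CPM or below in members and at 19.6 to 48.4 CPM in other cells, and Has3 had 0 UMIs in members. Ugp2, which makes UDP-glucose, stood at 941, 1152, 537 and 1288 CPM against 146, 156, 70.8 and 78.9 CPM, and Ugdh, which oxidises it to UDP-glucuronate, was 2.02-fold to 4.86-fold higher in members. On the amino sugar side Gfpt2 was 3.21-fold to 5.88-fold, Gnpnat1 4.90-fold to 16.4-fold and Uap1 2.15-fold to 2.72-fold higher, while their companions Gfpt1 (0.650 to 1.22) and Pgm3 (0.770 to 1.45) were within 2-fold. The sugar-nucleotide enzymes were collected after values had been seen. Of the 9 lubrication and hyaluronan genes considered, 4 were higher in all libraries (Prg4, Has1, Ugdh and Itih5, whose product binds hyaluronan) and none was lower.

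Genes of clotting and of the cell surface followed F13a1 and Clic5 in part. Of 13 clotting and fibrinolysis genes, 5 were higher in all libraries and 1, the tissue factor gene F3, was lower. Besides F13a1 and Fn1 these were Tgm2, a second transglutaminase (143, 118, 265 and 139 CPM against 34.3 to 66.4 CPM), Procr, the protein C receptor (306, 276, 605 and 444 CPM against 11 to 74.7 CPM), and Fgl2, a fibrinogen-like protein with prothrombinase activity (989, 769, 1900 and 635 CPM against 14.5 to 163 CPM). Among 7 CLIC and ezrin-family genes Clic5 and Slc9a3r1, the ezrin-binding scaffold, were higher, while Ezr was 1.42-fold to 2.83-fold and Rdx 1.03-fold to 1.37-fold higher. Among 12 tetraspanin and ADAM genes, Tspan15 and Cd151 were higher and Tspan6 was lower; Adam10, whose product Tspan15 escorts, was 1.54-fold to 3.40-fold higher. Pla1a had a companion in Ptgs1, the constitutive cyclooxygenase (70.0, 66.6, 103 and 174 CPM against 13.4 to 35.3 CPM), whereas the inducible Ptgs2 and the prostacyclin synthase Ptgis were lower in all libraries. Within the SPARC family Sparcl1 was higher and Sparc and Smoc2 were lower, and within the RGS family Rgs5 was higher and Rgs16 was lower.

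Across the remaining groups some genes were higher and others lower. Of 12 fibrillar and associated collagens 1 was higher (Col22a1) and 2 were lower (Col1a1 and Col1a2), and 0 of 10 basement membrane genes were past 2-fold in either direction in all libraries. The proteases Htra1 and Htra4 were higher and Mmp2, Mmp3, Adamts4 and the inhibitor Timp3 lower, of 13. Of 9 complement genes the inhibitor Cd55 was higher and C3, C4b and Clu were lower; of 18 inflammatory genes none was higher and 5 were lower (Cxcl12, Ccl7, Icam1, Lcn2 and Serpina3n); of 12 interferon response genes Cxcl9 and Cxcl10 were lower. Ctsk, the cathepsin K gene, was the only higher gene of 13 lysosomal ones. Among 15 transcription factor genes of joints, Creb5 (523, 424, 428 and 583 CPM against 61.1 to 127 CPM), Sox5 (265, 297, 278 and 322 CPM against 46.6 to 107 CPM) and Barx1 were higher. Creb5 is known from bovine articular chondrocytes as a factor needed for Prg4 expression. The Wnt amplifier Rspo2 and the atypical cadherin Cdh13 were higher, and Sfrp4, Chrdl1 and Cdh11 were lower. None of 18 immediate early and heat shock genes, 3 Notch genes or 12 hypoxia and glycolysis genes was past 2-fold in all libraries.

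Cells of 5 other kinds were taken from the same libraries by a pair of genes each, to show where the members differ from the cells most like them. A like cell was a barcode outside the population with 0 UMIs of Ptprc and Tyrobp. It held at least 1 UMI of each of its 2 genes and at least 8 per 10000 of both together. Its Clic5 and F13a1 together had to lie under 8 per 10000. The levels of Clic5 and F13a1 in like cells were thus capped in advance and are given as a description only. There were 11, 16, 161 and 1253 Msmp/Cytl1 cells, genes of superficial cartilage, in NHD13Tg, WT_A1, Abcg2-MDS/AML and Control. These cells also held much Prg4, at 21734, 118310, 58254 and 52957 CPM, yet Clic5 stood at 0, 24.6, 1 and 2.01 CPM in them and Tspan15 at 0 to 3.40 CPM. In Control their Prg4 level was close to the 61500 CPM of the members, so in that library the lubricin level alone did not set the members apart. Of the members, 2 in Control also met the conditions on Msmp and Cytl1, and none in the other libraries.

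Mural cells held Sparcl1 in all 4 libraries and Rgs5 at or above the members' level in 3. The 8, 9, 48 and 16 Acta2/Notch3 cells held Rgs5 at 42.5, 613, 3435 and 6652 CPM and Sparcl1 at 978, 2229, 1300 and 967 CPM, with 0 Clic5 and 0 F13a1 UMIs; in NHD13Tg the Rgs5 level rested on 2 UMIs and lay below the members' 501 CPM. Fibroblasts taken by Pi16 and Dpp4, 97, 52, 10 and 2 cells, held Cd55 at 552, 685, 454 and 219 CPM and Has1 at 1263, 1302, 360 and 1532 CPM. Cd55 lay below the members' 680 CPM in Abcg2-MDS/AML and 792 CPM in Control, where it rested on 24 and 3 UMIs. Has1 and Cd55 were thus also present in these fibroblasts, whereas Clic5 (0 to 24.4 CPM), Tspan15 (0 to 5.23 CPM) and Rgs5 (0 UMIs) were not at members' levels there. The 1055, 1275, 310 and 143 Col14a1/Dpt cells and the 37, 27, 92 and 25 Chil1/Mmp3 cells held Clic5 at 0 to 4.69 CPM. Members that also met the conditions on Col14a1 and Dpt numbered 5 in NHD13Tg and 9 in WT_A1, and 1 member of NHD13Tg met those on Pi16 and Dpp4.

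**Figure D3:**
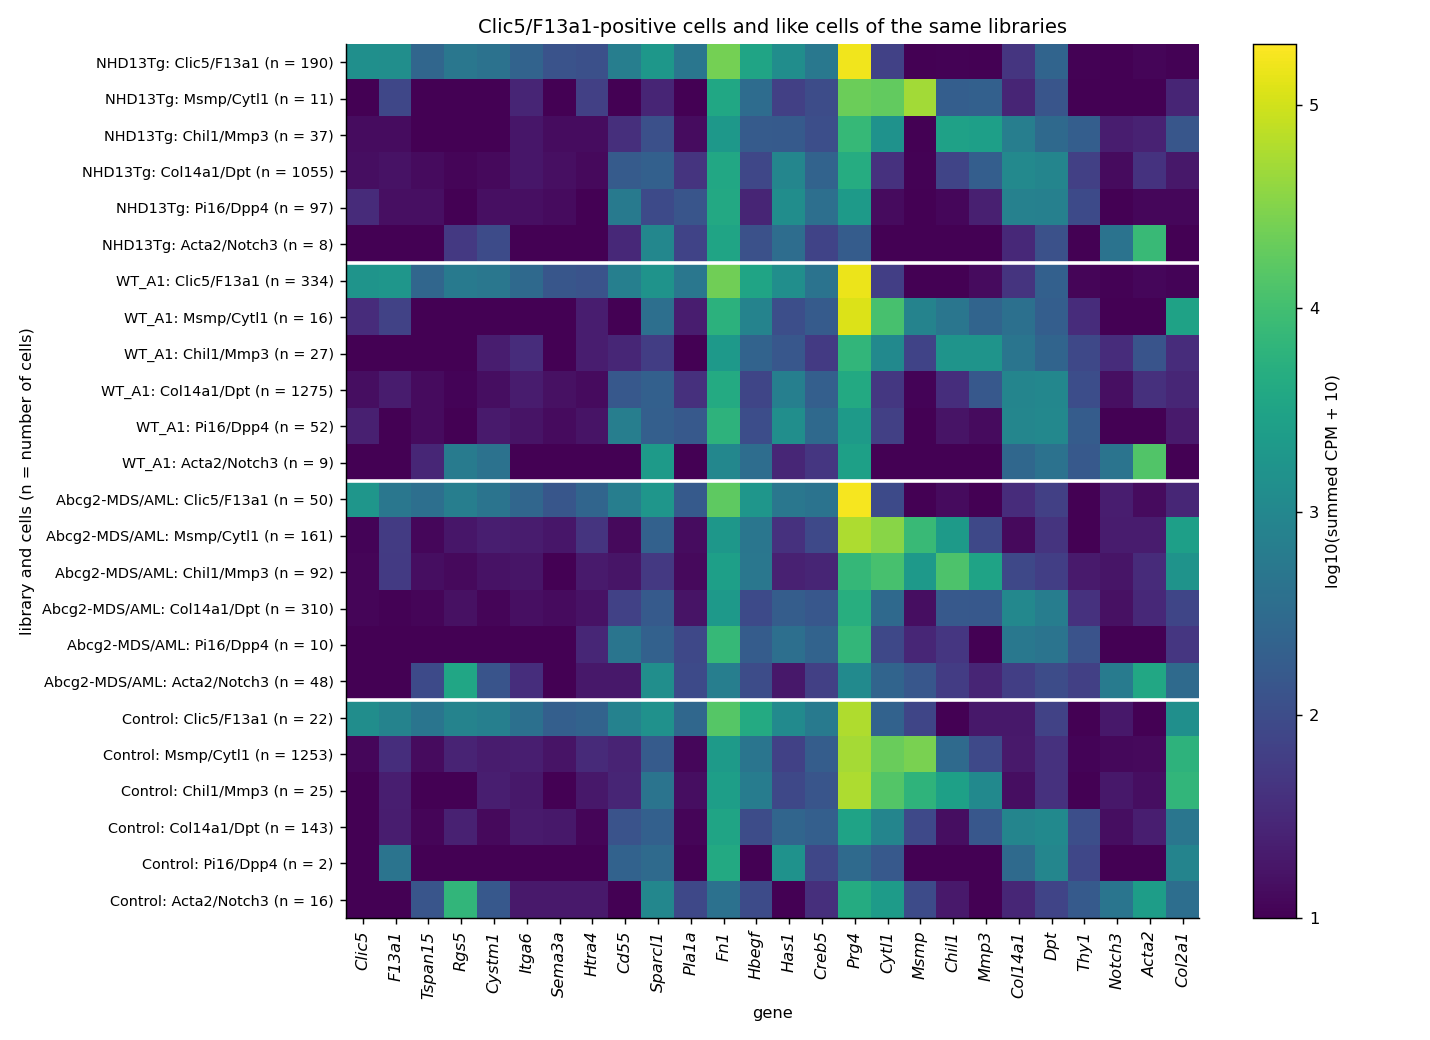
Summed CPM of 26 genes, as log10(CPM + 10), in members (top row of each library block) and in 5 kinds of like cells of the same library, with the number of cells in each label. Clic5, Tspan15, Itga6 and Sema3a are bright only in the top row of each block, Sparcl1 also in the Acta2/Notch3 cells, Rgs5 in those cells except in NHD13Tg, Cd55 and Has1 also in the Pi16/Dpp4 cells, and Prg4 also in the Msmp/Cytl1 cells. Clic5 and F13a1 were capped in the like cells by the rule that took them.

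The members of NHD13Tg and WT_A1 were numerous enough to describe their variation from cell to cell. Each cell was thinned to 1500 UMIs other than Prg4, so that the share taken by Prg4 could not lower the other genes, and the rank correlation with the Prg4 share was taken over 190 cells in NHD13Tg and 334 in WT_A1. The median over the correlated genes was 0.01 in both libraries, and of 545 genes in both, 4 reached 0.4 or more and 4 reached -0.4 or less in each. Cells of 1 library share their preparation and the genes share the cells' UMIs, so these values are descriptions without p.

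Cells rich in Prg4 were also rich in Fn1 (rho 0.51 in NHD13Tg and 0.47 in WT_A1), Fgl2 (0.41 and 0.47), the cathepsin gene Ctsb (0.43 and 0.41), the extracellular peroxidase gene Gpx3 (0.40 and 0.51), Cxcl12 (0.40 and 0.40) and Enpp2, the autotaxin gene (0.42 and 0.40). Cells poor in Prg4 held more Anxa8 (-0.46 and -0.49), an annexin gene, Crip1 (-0.45 and -0.41), Cd9 (-0.43 and -0.44), a tetraspanin gene, Igfbp6 (-0.43 and -0.40) and Tppp3 (-0.49 and -0.38). Clic5 followed neither side, with -0.01 and 0.17, while Rgs5 (-0.31 and -0.16) and Cd55 (-0.26 and -0.30) leaned to the Prg4-poor side. Without the correction for Prg4, in cells thinned to 2000 UMIs in all, the negative values were larger (Crip1 -0.58 and -0.52, Cd9 -0.52 and -0.52) and Fgl2 stood at 0.43 and 0.47.

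The size of this spread can be read from the cells with the most and the least Prg4 (the upper and lower 25%), which were set from Prg4 alone and are given as a description chosen after the correlations. In NHD13Tg the upper 48 cells held over 22.3% Prg4 and the lower 48 less than 6.27%; in WT_A1 the limits for 84 cells each were 18.9% and 4.6%. Fgl2 stood at 1792 CPM without Prg4 in the upper and 222 CPM in the lower cells of NHD13Tg, and at 1484 and 198 CPM in WT_A1. Cxcl12 stood at 1861 and 347 CPM in NHD13Tg and at 1206 and 167 CPM in WT_A1. In the other direction, Anxa8 stood at 181 and 1181 CPM in NHD13Tg and at 175 and 1603 CPM in WT_A1, and Igfbp6 at 181 and 1472 CPM and at 222 and 1349 CPM. The gap between the ends was 3-fold or more for each of these genes in both libraries, while Clic5 stood at 1833 and 1625 CPM in NHD13Tg and at 2492 and 1595 CPM in WT_A1.

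**Figure D4:**
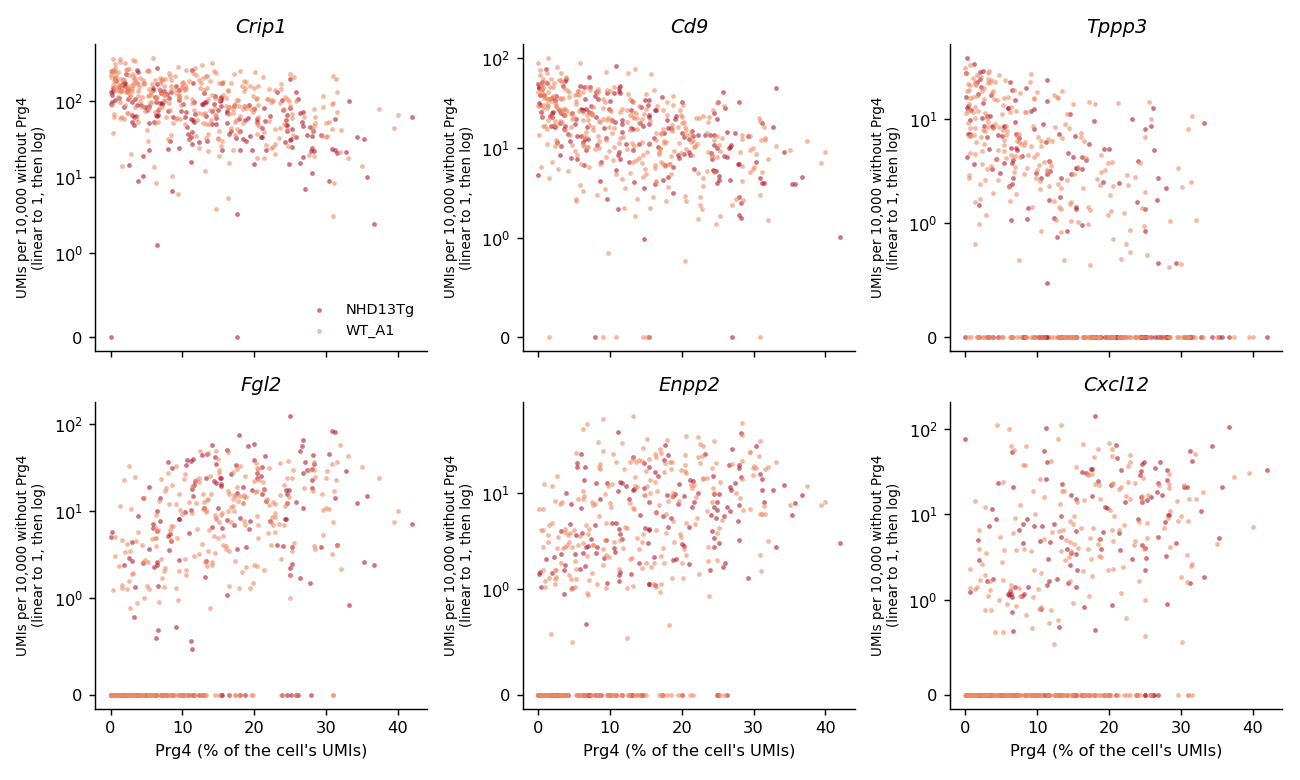
Each point is 1 member of NHD13Tg or WT_A1; the horizontal axis is Prg4 as a percentage of the cell's UMIs and the vertical axis is the gene's UMIs per 10000 UMIs other than Prg4, linear up to 1 and logarithmic above. Crip1, Cd9 and Tppp3 thin out toward the Prg4-rich side and Fgl2, Enpp2 and Cxcl12 fill in there, in both libraries.

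Rgs5 was found in part of the members. It was detected in 104 of 190 members in NHD13Tg, 201 of 334 in WT_A1, 26 of 50 in Abcg2-MDS/AML and 13 of 22 in Control. The genes named next were chosen after their values were seen. They were among those that differed most between Rgs5-positive and Rgs5-negative members in both NHD13Tg and WT_A1. In cells thinned to 2000 UMIs, Cystm1 stood at 606 CPM in Rgs5-positive and 163 CPM in Rgs5-negative members of NHD13Tg, at 667 and 218 CPM in WT_A1, at 519 and 375 CPM in Abcg2-MDS/AML and at 1000 and 389 CPM in Control. Anxa8 followed the same direction in all 4, at 750 and 221, 853 and 327, 750 and 333, and 1077 and 167 CPM. Sema3d, a semaphorin gene, stood at 279 and 46.5 CPM in NHD13Tg and at 291 and 82.7 CPM in WT_A1, and Hhip, an antagonist of hedgehog signalling, at 130 and 29.1 CPM and at 236 and 48.9 CPM. Rgs5-negative members held more Gsn, the gelsolin gene, at 2813 CPM in positive against 5454 CPM in negative members of NHD13Tg, 2080 against 4196 in WT_A1, 2885 against 5854 in Abcg2-MDS/AML and 2077 against 4000 in Control. Pla1a lay on that side too, at 303 against 634 CPM in NHD13Tg and 294 against 632 CPM in WT_A1. Deeper cells show a UMI of Rgs5 more readily, and Rgs5 was read at full depth, so depth may still differ between the groups. Only the other genes were thinned to 1 depth.

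Between NHD13Tg and WT_A1 few genes of the members differed in size. A gene was taken as past the rule of size, which is not a test, with at least 20 CPM in 1 library, at least a 2-fold ratio and a counting interval that left out 1. Of 5344 genes considered, 30 (0.561%) were higher in NHD13Tg and 32 (0.599%) lower, and the median log2 ratio was -0.03. None of the 4 marker genes outside the rule and 0 of 13 lining genes considered passed, and the median of the lining list was -0.05. Prg4 stood at 164140 CPM in NHD13Tg and 152140 CPM in WT_A1, a log2 ratio of 0.11 (0.10 to 0.12). Among the lining genes the ratio was 0.75 for Htra1 (0.70 to 0.80), -0.01 for Hbegf, -0.06 for Cd55, -0.07 for Has1 and -0.38 for Itga6 (-0.54 to -0.22). F13a1 was at -0.47 and Clic5 at -0.25, values that the rule helped to set and from which nothing is read.

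The genes higher in NHD13Tg members covered a wide range of levels. S100a4, a calcium-binding protein gene, stood at 1059 CPM in NHD13Tg and 483 CPM in WT_A1, a log2 ratio of 1.13 (1.04 to 1.23), with 0.75 in the other cells. Mfap5, a microfibril gene, stood at 137 and 51.2 CPM, a ratio of 1.42 (1.15 to 1.70), with -0.07 in the other cells; free RNA held it at 303 and 352 CPM, above the members of both libraries. The protease inhibitor gene Slpi stood at 119 and 28.9 CPM, a ratio of 2.04 (1.70 to 2.39), with 0.74 in the other cells. Its NHD13Tg UMIs lay in 17 members, 34.9% of them in 1 cell. Cdk2ap1 stood at 49.0 and 12.7 CPM, a ratio of 1.94 (1.43 to 2.49), with 1.25 in the other cells. Vkorc1, the vitamin K epoxide reductase gene, stood at 226 and 95.5 CPM, a ratio of 1.25, with 0.79 in the other cells. Of the inflammatory list Icam1 (1.23) and Ccl2 (1.11) were higher and none of 11 lower, and of the complement list C3 (1.05) and C4b (1.03) were higher and none of 8 lower. These 4 genes stood at no more than 63.0 CPM in members, and free RNA of NHD13Tg held Icam1 at 133, Ccl2 at 730, C3 at 238 and C4b at 619 CPM. Of the Ccl2 UMIs in NHD13Tg members 41.1% lay in 1 cell, and the log2 ratio in the other cells was -0.11 for Icam1, 0.19 for Ccl2, -0.20 for C3 and 0.72 for C4b. The part of free RNA in these 4 calls was not tested.

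Several of the largest ratios rested on 1 cell or were shared with the rest of the library. Mmp13, the collagenase 3 gene, stood at 84.0 CPM in NHD13Tg and 5.51 CPM in WT_A1, a log2 ratio of 3.90 (3.26 to 4.68), with 48.8% of its NHD13Tg UMIs in 1 cell. The iron carrier gene Trf stood at 23.5 and 3.03 CPM, with 63.8% of its NHD13Tg UMIs in 1 cell, and Adipoq at 26.0 and 7.16 CPM, with 67.3% in 1 cell. Hp, the haptoglobin gene, stood at 249 and 69.1 CPM, a ratio of 1.85 (1.63 to 2.08), beside 2.13 in the other cells, and free RNA held it at 2994 CPM in NHD13Tg. Of the 30 higher genes, 8 were also at least 2-fold higher in the other cells, 5 had at least 40% of their UMIs in 1 cell and 18 were at or below their level in free RNA.

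Lower genes included matrix genes and a gene with near-identical copies. Fmod, the fibromodulin gene of tendon, stood at 3.00 CPM in NHD13Tg and 44.3 CPM in WT_A1, a log2 ratio of -3.77 (-5.35 to -2.73), and Postn, the periostin gene, at 4.50 and 40.7 CPM, with 61.5% of the WT_A1 UMIs in 1 cell. Aldh1a2, a second retinaldehyde dehydrogenase gene, stood at 23 and 48.2 CPM, a ratio of -1.06 (-1.57 to -0.59), with -0.18 in the other cells. Gstp1, a glutathione S-transferase gene, stood at 50.5 CPM in NHD13Tg and 181 CPM in WT_A1, a ratio of -1.84, with -2.01 in the other cells. It has near-identical copies elsewhere in the genome, so its count is uncertain. Of the 32 lower genes, 17 were also at least 2-fold lower in the other cells and 18 were at or below free RNA.

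Between Abcg2-MDS/AML and Control, 50 cells were set against 22 and the ratios are wider. Of 6109 genes considered, 143 (2.34%) were higher in Abcg2-MDS/AML and 456 (7.46%) lower, around a median log2 ratio of -0.26. That median moved to 0.05 with TMM scaling, with 306 higher and 203 lower genes, and to -0.08 with totals that leave out Prg4, with 234 higher and 326 lower. The excess of lower genes therefore depended on the scaling, and the TMM value is given where the call of a named gene or the count of a named list changed. Of the lower genes, 108 were also at least 2-fold lower in the other cells, and free RNA reached or passed the members' level for 31 of the higher and 118 of the lower genes.

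Prg4 was the lining gene with a higher level in Abcg2-MDS/AML than in Control members, and for Prg4 the library that lay apart was Control. Prg4 gave 17.1% of member UMIs in Abcg2-MDS/AML and 6.15% in Control, beside 15.2% in the wild-type library WT_A1 and 16.4% in NHD13Tg. It stood at 171060 CPM in Abcg2-MDS/AML and 61500 CPM in Control, a log2 ratio of 1.48 (1.44 to 1.51), with 1.78 under TMM scaling. In the other cells of the libraries the ratio was -0.59. Single members overlapped, with medians of 1610 and 458 per 10000 UMIs and upper ends of 3764 and 2681. Of 12 lining genes considered, Prg4 was the only higher one and 5 were lower. Hbegf stood at 1772 CPM in Abcg2-MDS/AML and 4229 CPM in Control, a ratio of -1.25 (-1.43 to -1.08), Has1 at 499 and 1140 CPM, -1.19 (-1.53 to -0.85), and Vcam1 at 18.7 and 69.6 CPM, with all Control UMIs in 1 cell. These 3 were not past the rule under TMM scaling, where Hbegf was at -0.95 and Has1 at -0.88. Col22a1 (-1.44, TMM -1.13) and Fap (-1.34, TMM -1.03) were lower under both. For Hbegf and Has1 the library that lay apart was Abcg2-MDS/AML. Members of NHD13Tg and WT_A1 held Hbegf at 3225 and 3254 CPM and Has1 at 1255 and 1314 CPM. The median of the lining list was -0.47.

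The 4 marker genes outside the rule were within 2-fold in this pair, with log2 ratios of 0.23 for Sparcl1, -0.34 for Tspan15 and -0.75 for Pla1a; Clic5 at 0.53 and F13a1 at -0.79 depend on the rule. Rgs5 was at -0.28 with 0.03 under TMM scaling, and 50% of its Control UMIs lay in 1 cell. The enzymes of hyaluronan precursors went in both directions. Gnpnat1 stood at 159 CPM in Abcg2-MDS/AML and 548 CPM in Control, a ratio of -1.78 (-2.35 to -1.23), with 0.04 in the other cells and -1.47 under TMM scaling. Ugp2 stood at 537 and 1288 CPM, a ratio of -1.26, with -0.16 in the other cells, and was not past the rule under TMM scaling (-0.96). Ugdh stood at 908 and 470 CPM, a ratio of 0.94 (0.53 to 1.40), and was higher past the rule under TMM scaling (1.25). Gfpt2 was at 0.33 (-0.11 to 0.80) and Uap1 at -0.26 (-0.70 to 0.22), while Gfpt1, at 25 and 78.3 CPM, was lower at -1.64 and not past the rule under TMM scaling. The hyaluronan receptor gene Cd44 stood at 187 and 444 CPM, a ratio of -1.25, and was not past it either (-0.94).

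Of the 143 genes higher in Abcg2-MDS/AML members, 55 were also at least 2-fold higher in the other cells and 24 did not go in the same direction there. The metallothionein genes Mt1 and Mt2, which bind zinc and copper, stood at 10158 and 2390 CPM in Abcg2-MDS/AML and 835 and 252 CPM in Control, log2 ratios of 3.60 (3.31 to 3.91) and 3.22 (2.71 to 3.83), with 3.56 and 3.27 in the other cells. Free RNA of Abcg2-MDS/AML held Mt1 at 12123 and Mt2 at 2984 CPM, above the members, and its part in these ratios was not tested. Pdk4, which restrains glucose oxidation, had 122 UMIs in Abcg2-MDS/AML and 0 in Control, 14.6-fold higher with 3 counts in the place of 0. The counting interval of its log2 ratio began at 3.55, and the log2 ratio of Pdk4 in the other cells was 4.19. Set in the same way, Apod, a lipocalin gene, was 7.29-fold higher, with 60.7% of its UMIs in 1 cell, and Serpina3n 3.47-fold. The intervals of their log2 ratios began at 2.52 and 1.40, and their log2 ratios in the other cells were 5.78 and 4.65. Both genes, at 190 and 90.5 CPM in Abcg2-MDS/AML members, lay below the 3175 and 259 CPM of free RNA there. Adamts5, the aggrecanase gene, stood at 1969 and 357 CPM, a ratio of 2.45 (2.01 to 2.96) with 1.65 in the other cells. Fgl2 stood at 1900 and 635 CPM, a ratio of 1.57 (1.23 to 1.95) with 2.99 in the other cells, and Ctsk at 999 and 339 CPM, a ratio of 1.54 (1.07 to 2.08) with 1.84. Genes chosen after their values were seen, as higher in members with a ratio under 0.5 in the other cells, included Tnfaip2 at 487 and 218 CPM (1.14 against -0.22), Fbln5, an elastic fibre gene, at 253 and 122 CPM (1.01 against -0.33) and the small heat shock gene Hspb1 at 384 and 148 CPM (1.34 against 0.36).

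The largest lower ratios came from single Control cells. Col2a1, the type II collagen gene, stood at 18.7 CPM in Abcg2-MDS/AML and 1384 CPM in Control, a log2 ratio of -6.10, and all 9 chondrocyte markers considered were lower. The deepest Control member, with 14107 UMIs, held 389 of the 430 UMIs of the chondrocyte list in Control members (90.5%), beside 24 Clic5, 8 F13a1 and 114 Prg4 UMIs. The list summed to 3742 CPM over all Control members and 407 CPM over the other 21, against 165 CPM in Abcg2-MDS/AML. Without that cell 143 genes were higher and 399 lower of 5881, Col2a1 was at -2.49, and Prg4 stayed higher at 1.31 (1.27 to 1.35), Hbegf lower at -1.25 and Has1 lower at -1.28. Spp1, the osteopontin gene, stood at 449 and 6649 CPM, with 763 of 764 Control UMIs in 1 other cell. Of the 456 lower genes, 155 had at least 40% of their UMIs in 1 cell, and 9 of 12 collagens were among the lower genes, Col3a1 with a ratio of -1.45 (-1.89 to -1.01). Under TMM scaling 7 of the 12 were lower, without Col1a1 (-1.08, TMM -0.77) and Col5a2 (-1.07, TMM -0.76). Of the 9 collagens, 5 were reached by free RNA and 3 had at least 40% of their Control UMIs in 1 cell. The cartilage-rich cell was not among the barcodes with the highest doublet scores; whether it is a doublet was not tested further.

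The overlap of the pairs was counted beside the share of genes past the rule in each. In NHD13Tg over WT_A1 0.561% were higher and 0.599% lower, and in Abcg2-MDS/AML over Control 2.34% and 7.46%. Whether the overlaps differ from what these shares would give was not tested. Of 4989 genes considered in both, Hp and AI607873 were higher in both models, and 3 were lower in both, of which Fmod and Col12a1 could be ranked. In the second pair these calls rested on few cells: Hp had 27 UMIs in Abcg2-MDS/AML, 96.3% of them in 1 cell, and 1 in Control, and AI607873 had 16 and 0. Fmod had 3 UMIs in Abcg2-MDS/AML and 10 in Control, 70% of these in 1 cell, and Col12a1 had 2 and 16, 93.8% of these in 1 cell. Free RNA reached the members for each of the 4 genes in both pairs; in Abcg2-MDS/AML it held Hp at 519 CPM against 84.3 CPM in members. The pairs share no library, and 4 genes were higher in NHD13Tg and lower in Abcg2-MDS/AML, with none the other way. The lining genes gave no shared direction past the rule: Prg4 stood at 0.11 and 1.48, Has1 at -0.07 and -1.19 and Hbegf at -0.01 and -1.25 in the NHD13Tg and Abcg2-MDS/AML comparisons, and the difference between the comparisons was not tested.

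**Figure D5:**
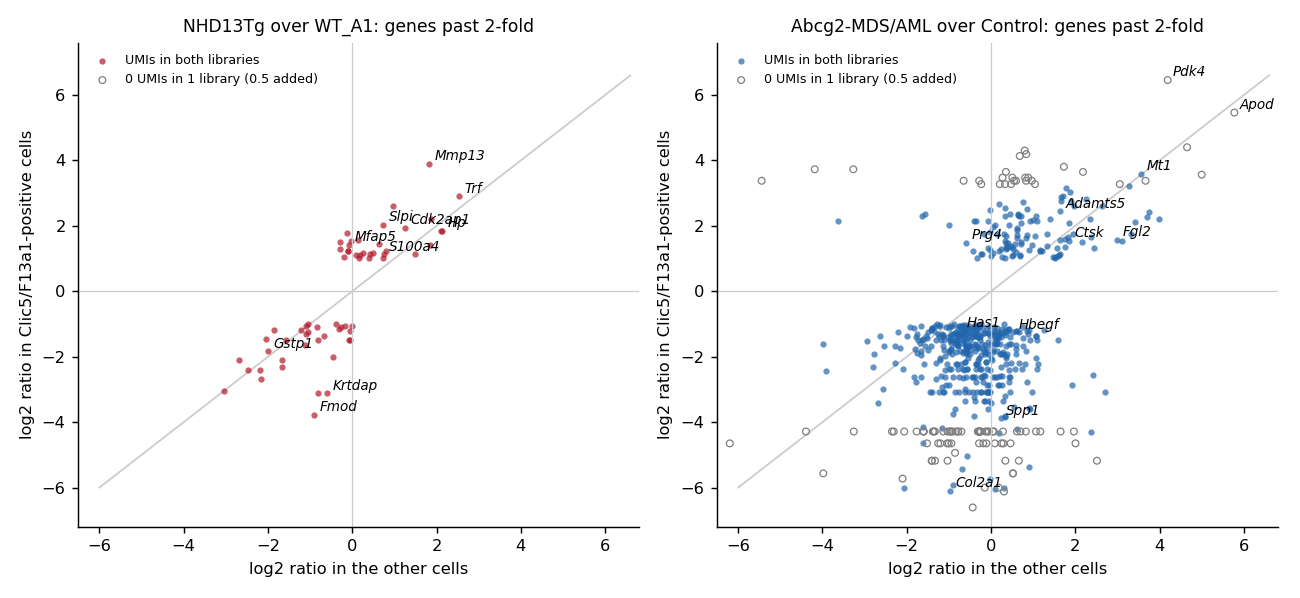
Each point is a gene past the rule of size in members, with its log2 ratio in the other cells of the libraries on the horizontal axis and in members on the vertical axis, NHD13Tg over WT_A1 at left and Abcg2-MDS/AML over Control at right; 1 gene beyond the left edge at right is drawn at the edge, and open points have 0 UMIs in 1 library. Mt1, Apod and Gstp1 lie near the diagonal of equal ratios, while Prg4, Hbegf and Has1 at right and Mfap5 at left lie away from it.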

How the data were processed

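The authors' deposited files hold raw UMI counts for 27998 genes in 4 matrices of all barcodes, not restricted to cells. Libraries were made with Chromium 3' chemistry for a NextSeq 500 instrument, per the labels' protocols; Cell Ranger 3.1.0 and Seurat 3.2.3 are named, per the submitters' processing notes. The genome build is not given in the sources used here, so counts were read by gene symbol and no coordinate was taken from the files.

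Counts were summed over the members of each library and divided by all their UMIs to give CPM, and the same was done for the other kept barcodes and for free RNA (barcodes with 1 to 100 UMIs). Folds of members over other cells have 10 CPM added; log2 ratios within pairs have 0.5 counts added. Genes with at least 20 CPM in 1 library were considered. Binomial (Clopper-Pearson), Poisson and conditional binomial intervals are exact at the 95% level. Intervals of differences of shares combine those of both shares by squaring and adding their arms. UMIs of PCR-amplified libraries are counted as molecules, and the intervals cover counting error only. A fold against 0 UMIs uses 3 counts over the group in its place. With 1 library per group no test across samples was possible. Scrublet in scanpy 1.11.5 marked 1 barcode in NHD13Tg, 0 in WT_A1, 1 in Abcg2-MDS/AML and 1 in Control, under 0.5% of each library, which means that it did not work here; all barcodes were kept, and removal of the highest scores at 0.8% per 1000 barcodes, with 8, 19, 2 and 0 members, was an alternative.

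Named genes were the 6 markers; the 15 largest lowest folds over the libraries among genes with at least 100 CPM in summed members; up to 4 members of each list with the highest CPM and those past the rule of size; in each pair the 10 largest ratios per direction with at least 20 UMIs; genes past the rule in both pairs; and the genes of the sort. Mitochondrially encoded, sex-linked, immunoglobulin, Gm-numbered and Rik symbols stayed out of the rankings. Of the genes that this rule picks, 1 is not reported here. Other genes named are said to be chosen after their values were seen, as were the extra genes of the lining comparison in pairs. The members and all lists were chosen with earlier results of these data known. Promoters were taken from RefSeq. Alternatives were other member thresholds, both genes required, doublets removed, thinning to 2000 UMIs, at least 4000 UMIs, TMM scaling (edgeR 4.0.16 in R 4.3.3), means over cells, other CPM minimums and genes at free RNA level left out; totals without Prg4, and without the deepest or the cartilage-rich member, were added after the data were seen. Scripts ran in Python 3.11.15 with numpy 2.4.6, scipy 1.17.1 and pandas 2.3.3, and were tested on simulated data.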

Additional observations from a re-analysis of the deposited data

How the results depend on the processing

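The differences in members' shares kept their direction under all 6 alternatives run on them, between -3.97 and -2.96 points for NHD13Tg minus WT_A1 and between 0.267 and 0.734 points for Abcg2-MDS/AML minus Control. Counts of genes past the rule of size moved more, and the number of genes considered changed with some settings. In NHD13Tg over WT_A1 the main setting gave 30 and 32 higher and lower genes of 5344 considered. They numbered 12 and 11 of 2696 with at least 50 CPM and 203 and 199 of 14382 with no minimum. With genes at free RNA level left out they numbered 12 and 14 of 3495. In Abcg2-MDS/AML over Control they numbered 306 and 203 of 6396 with TMM scaling and 783 and 1165 of 6109 with means over cells. With totals without Prg4, 234 of 6396 were higher. Sign changes among named genes were Trf in NHD13Tg over WT_A1 with doublets removed (-0.74), Spp1 (5.02) and Plat (0.10) in Abcg2-MDS/AML over Control with a sum of at least 16 per 10000, and Sox9 there without the deepest member (0.46); each of the Spp1 and Sox9 changes removes the Control cell that held most of the UMIs, and the cause of the others was not tested. In that pair 22 Control cells and 114910 UMIs limit what can be detected. No paired analysis was possible because each group has 1 library.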
